A study of Mus musculus with 14 samples.

Results

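ER chaperones and the unfolded protein response are represented here by 36 mouse genes of protein folding, quality control and stress signalling in the endoplasmic reticulum (ER), measured by RNA sequencing in mouse embryonic fibroblasts labelled Tip60 knockout or control. The members were listed by name for these functions, with earlier results of these data known. Of the 36 names, 34 matched a gene symbol and 2 matched through a newer symbol (Ero1lb as Ero1b and Selk as Selenok), out of 26270 gene identifiers in the files. All 36 were among the 14327 genes with enough counts to be tested. They comprise 19 chaperones and oxidoreductases of the ER lumen and membrane, 10 genes of ER-associated degradation (ERAD), 4 genes of the stress sensors, and 3 genes of the translocon. The sensor class holds Ern1, Eif2ak3, Atf6 and also Xbp1, which encodes a transcription factor and not a sensor.

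Embryonic fibroblasts taken at E13.5 were cultured at 3% O2, and the series asked which genes differ between Tip60 knockout (KO) and control cells after 3 and 5 days of induction. The KO cells are labelled Tip60-/- and were sampled at day 3 (3 libraries) and day 5 (4 libraries) of 250 nM 4-hydroxytamoxifen (4-OHT), the drug that induced the deletion. The control cells are labelled Tip60+/+ and were sampled at day 3 (3 libraries) and day 5 (4 libraries). The same treatment text stands for every sample, the labels do not say separately that control cells received the drug, and the source of the Cre recombinase is not given in the sources used here. Tip60, encoded by Kat5, is a lysine acetyltransferase that acts on chromatin.

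Secreted and membrane proteins enter the ER through the translocon, fold there with the help of chaperones and of enzymes that form disulfide bonds, and are returned to the cytosol for degradation when folding fails. When unfolded proteins accumulate, the membrane sensors IRE1 (Ern1), PERK (Eif2ak3) and ATF6 start the unfolded protein response (UPR), in which IRE1 splices the mRNA of the transcription factor XBP1, ATF6 is cleaved to an active factor, and PERK slows translation and favours ATF4. Fibroblasts secrete large amounts of collagen and other matrix proteins, and depend on this machinery.

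Library totals ran between 2187168 counts, in KO day 3 replicate 3, and 39203154 counts, in KO day 3 replicate 2. Levels are given in CPM, counts scaled to a fixed library total with TMM factors, edgeR's trimmed-mean scaling. Kat5 averaged 19.9 ± 1.41 CPM in KO day 3 cultures and 31.9 ± 0.41 CPM in control day 3 cultures (± SD over 3 libraries each), and 18.4 ± 1.14 CPM in KO day 5 cultures and 30.9 ± 0.923 CPM in control day 5 cultures (± SD over 4 libraries each). Its log2 fold changes were -0.68 ± 0.086 and -0.75 ± 0.071 (SE), with adjusted p = 2.02e-05 and 1.59e-06 in edgeR's quasi-likelihood test. An exact two-sided permutation test gave p = 0.1 at day 3, the smallest that 3 against 3 allows, and p = 0.0286 at day 5, the smallest that 4 against 4 allows. Kat5 was lower in the KO cultures, where more of its level remained than was lost, and the part of the gene that was deleted is not given in the sources used here. All 10 fibroblast markers examined had counts in all 14 libraries. At day 3, 6 of them were higher and 0 lower in KO by edgeR's test (also 0 lower at an unadjusted p of 0.05 and by DESeq2), and they summed to 29666 to 32161 CPM in KO, against 17254 to 21394 CPM in control. At day 5, 4 were higher and 3 lower, with sums of 18127 to 22551 CPM in KO, against 22422 to 27375 CPM in control. Of 6 tested macrophage markers, 4 were lower in KO at day 3, where the list summed to 47.7 to 69.2 CPM in KO, against 75.0 to 103 CPM in control. All 3 tested muscle markers were higher in KO at day 3, with list sums of 102 to 193 CPM in KO, against 56.3 to 107 CPM in control. Cartilage markers, 8 genes led by Col2a1, summed to 3386 to 3930 CPM in KO day 3, against 239 to 436 CPM in control day 3, and to 2297 to 4451 CPM in KO day 5, against 421 to 3384 CPM in control day 5, and 7 of the 7 tested were higher in KO at day 3 and 3 at day 5. Among all tested genes, 26.2% were lower and 24.6% higher in KO at day 3, and 26.2% and 26.3% at day 5. The part of these marker genes' cells in the results was not tested. The highest cartilage marker sum of control day 5 belongs to replicate 4, which is male and from another litter than the other controls. This library stood apart from the other day 5 controls on the first principal component (0.07 against 33.0 to 39.7). Replicates 1 and 2 of the day 3 controls carry the same embryo label, several embryos were sampled at both days, and no embryo gave both genotypes, so embryos are nested within genotype. Litter numbers recur under both genotypes with different embryo labels, and whether these are the same litters is not given. Within each genotype the leading number of the embryo label goes with the litter number, and no leading number occurs under both genotypes. If that number marks the litter, litters are nested within genotype as well. A difference between litters was then not separated from a difference between genotypes. With the embryo as a random block (limma voom), 29 members were called at day 3 and 25 at day 5, beside 29 and 24 in the fit reported here. The p-values measure the spread between cultures, which partly share embryos. In bulk RNA, fewer cells of a type and less RNA per cell cannot be told apart either.

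At day 3 most of these genes were lower in KO cells, and for most of them the 3 day 3 control libraries stood above all the others. Calls rest on edgeR's quasi-likelihood test at an adjusted p of 0.05, with the adjustment taken over all 14327 genes. At day 3, 28 of the 36 members were lower and 1 was higher in KO cells, with a median log2 fold change of -0.94, while 26.2% of all tested genes were lower and 24.6% were higher, with a median near 0 (-0.004). At day 5, 17 members were lower and 7 were higher, with a median of -0.19, beside 26.2% and 26.3% of all tested genes. The difference between the 2 KO effects, day 5 minus day 3, was called positive for 26 members and negative for 0 members, beside 7.16% and 7.15% of all tested genes. For these 26 members the KO level, relative to control, stood higher at day 5 than at day 3 by the test. The difference uses the same day 3 control libraries as the day 3 effect, so it is not independent of that effect. At an unadjusted p of 0.05 edgeR gave 1 negative member (Sec61a1), and DESeq2, run as an alternative, called 26 positive and 1 negative. With libraries scaled by their totals alone, the calls among all genes were 1503 positive and 706 negative, beside 1026 and 1025 in the fit reported here, and the members' calls were 27 and 0.

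All 3 KO libraries lay below all 3 control libraries for 30 of the 36 members at day 3, which held for 29.6% of all tested genes. At day 5 all 4 KO libraries lay below all 4 control libraries for 19 members, beside 23.8% of all tested genes, and above them for 6 members, beside 23.5% of all tested genes. The members together took 1.11% to 1.21% of the counts of the KO libraries and 2.79% to 2.96% of those of the control libraries at day 3. At day 5 they took 1.03% to 1.12% in KO and 1.29% to 1.42% in control. The 3 day 3 control libraries were above each of the other 11 libraries for 26 of 36 members (72.2%), a pattern that 13.8% of all tested genes showed. The 10 members without it were Sil1, Hspa13, Txndc5, Edem2, Os9, Ern1, Eif2ak3, Sec61b, Sec61a1 and Ssr1.

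**Figure D1:**
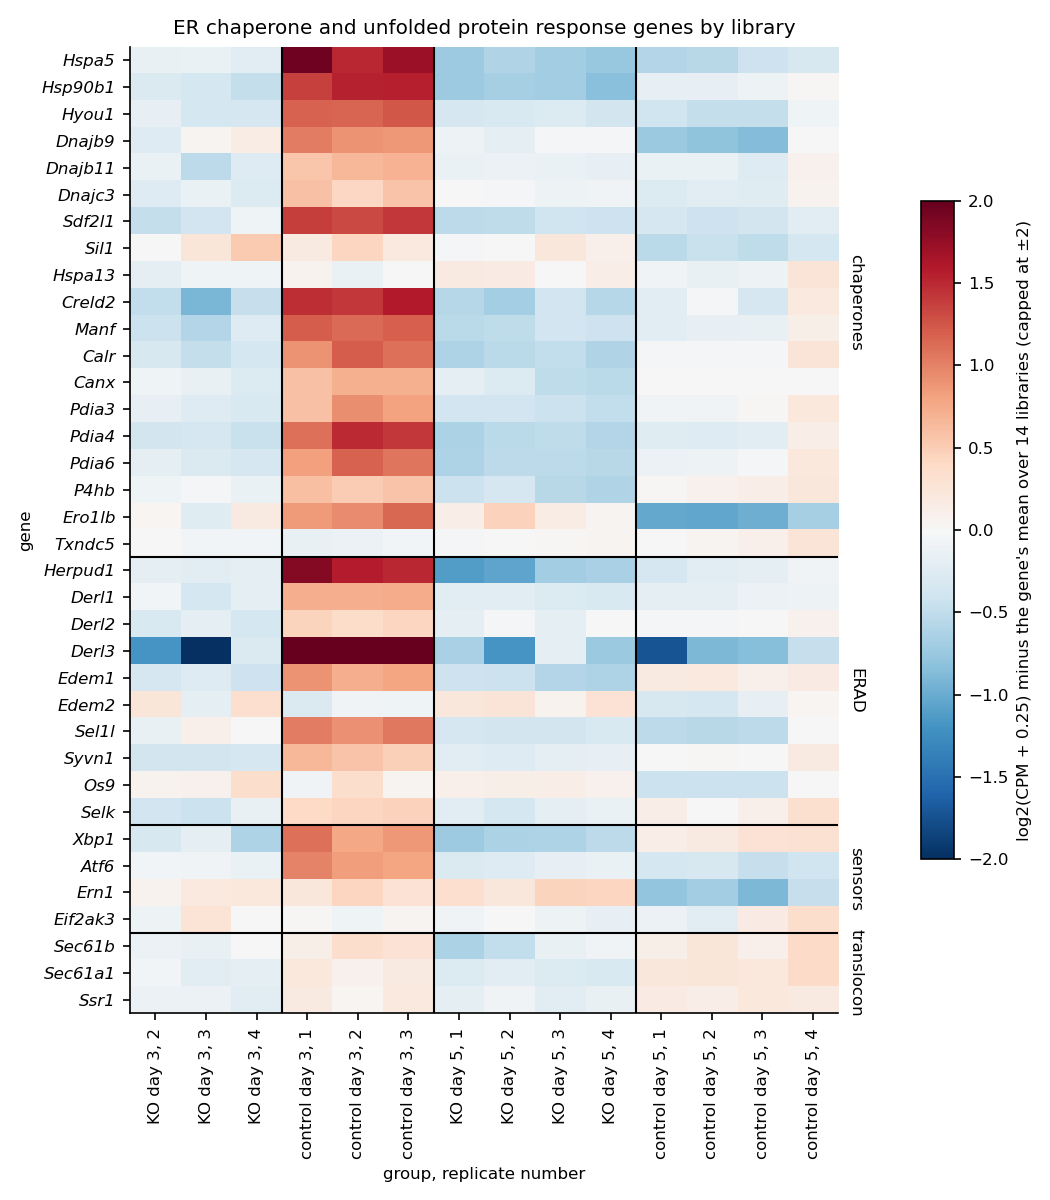
Heat map of the 36 members (rows, by functional class) in the 14 libraries (columns, by group and replicate number); colour is log2(CPM + 0.25) minus the gene's mean over the 14 libraries, capped at 2 in either direction. The 3 day 3 control columns are red for most chaperone and ERAD rows, and the other 11 columns are pale or blue.

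The promoters of several members carry the ER stress response element (ERSE), the sequence through which ATF6 and XBP1, together with NF-Y, are known to act in mammals. It reads CCAAT, 9 bases of any kind and CCACG on the forward strand, or CGTGG, 9 bases and ATTGG when it lies on the other strand. RefSeq promoter windows (build GRCm38.p6, whose coordinates are those of mm10), running 250 bases before to 50 bases after an annotated transcript start, were at hand for 29 of the 36 members. The stretches below show the elements in both orientations, and 2 members with related elements, with the matched letters in capitals. Each is given 5′ to 3′ on the gene's strand: Hspa5 at chr2:34772015-34772053 (plus), Hsp90b1 at chr10:86705523-86705666 (minus), Calr at chr8:84847065-84847103 (minus), Creld2 at chr15:88819510-88819548 (plus), Ero1lb at chr13:12565672-12565710 (plus), Derl3 at chr10:75893232-75893270 (plus), Herpud1 at chr8:94386367-94386397 (plus) and Txndc5 at chr13:38528035-38528062 (minus). Each stretch lies upstream of a RefSeq start, which for Txndc5 is 1 of 3 and lies inside the gene's annotated span, so that its stretch is within the span too. Hsp90b1 holds an ERSE in each orientation. Herpud1 holds the shorter ERSE-II (ATTGG, 1 base, CCACG), and Txndc5 holds the UPR element UPRE (TGACGTGG).
Hspa5: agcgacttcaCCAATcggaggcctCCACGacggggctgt
Hsp90b1: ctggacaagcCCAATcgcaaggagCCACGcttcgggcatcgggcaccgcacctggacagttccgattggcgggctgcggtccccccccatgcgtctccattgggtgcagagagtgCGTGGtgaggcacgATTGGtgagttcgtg
Calr: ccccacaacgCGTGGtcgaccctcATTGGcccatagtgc
Creld2: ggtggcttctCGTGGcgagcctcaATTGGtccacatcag
Ero1lb: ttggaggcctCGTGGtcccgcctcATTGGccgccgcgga
Derl3: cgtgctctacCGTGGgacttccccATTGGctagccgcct
Herpud1: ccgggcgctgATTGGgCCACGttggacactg
Txndc5: gcctcgccgcTGACGTGGcgctagccgc

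An ERSE was found in 10 of the 29 members with a window (34.5%), namely Hspa5, Hsp90b1, Dnajc3, Creld2, Calr, Canx, Pdia6, Ero1lb, Derl3 and Syvn1, on either strand. Over all 27025 genes with such a window it was found in 37 (0.137%), and over the 10994 tested genes with a window in 18 (0.164%). The members were listed as genes of the pathway whose factors act through this element. Its higher share among them is therefore a description and no test. All 10 members with an ERSE were lower in KO cells at day 3, with a median log2 fold change of -1.38. Of the 19 members with a window and no ERSE, 13 were lower, with a median of -0.74, and of all tested genes 26.2% were lower. Of the 7 members with no window, 5 were lower, with a median of -0.92. The members with an ERSE are 8 chaperones and 2 ERAD genes, whereas those without include sensor and translocon genes. The element and the class therefore cannot be told apart here. At day 5, 6 of the 10 members with an ERSE were lower and 1 (Ero1lb) was higher (median -0.31), beside 26.2% and 26.3% of all tested genes. Of the 19 members with a window and no ERSE, 9 were then lower and 4 higher (median -0.15). Of the 7 with no window, 2 were lower and 2 higher (median 0.03). Among tested genes, 8 genes outside the list also held an ERSE, and 3 of these were lower at day 3 (Zfp57, Alg12 and Hnrnpa3, named after their values were seen), with a median of -0.24 over the 8. The ERSE of Alg12, a glycosylation enzyme, is the same site as that of Creld2, since both genes start from opposite strands there. ERSE-II was found in Herpud1 and, downstream of the start, in Dnajb11 (6.9% of members and 0.0444% of all genes with a window). UPRE was found in Txndc5 alone (3.4% of members, 0.714% of genes), and the ATF4-type element CARE (TGATGNAA, either strand) in Herpud1 and Txndc5 (6.9% of members, 4.51% of genes). No 2 of these 4 kinds of match overlap in a member's window. A match is a description of letters within 300 bases, and binding was not measured.

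**Figure D2:**
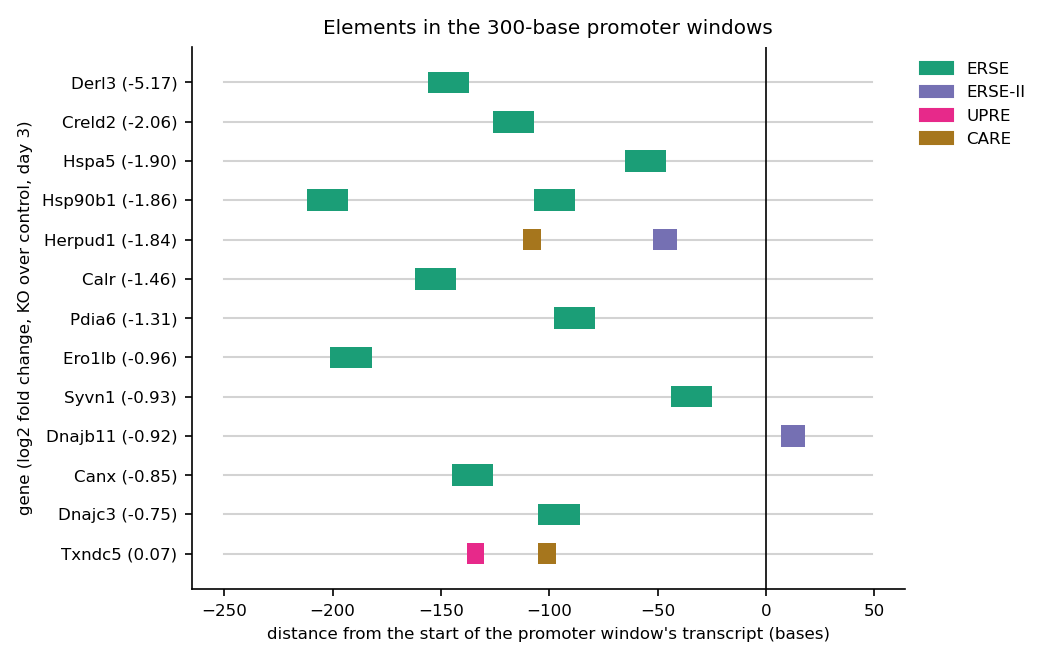
Positions of the 4 kinds of element in the promoter windows of the 13 members that hold any, as distance in bases from the annotated transcript start of the window (vertical line); genes run in the order of their day 3 log2 fold change, KO over control, given in brackets. The ERSE (green) lies upstream of the start in all 10 members that hold it, and Txndc5, which holds UPRE and CARE, has a fold change of 0.07.

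The abundant chaperones of the BiP machinery were lower in KO cells at day 3. Hspa5 (chromosome 2, 34772090 to 34776529) encodes BiP, the HSP70 of the ER lumen and the chaperone that holds the UPR sensors inactive. Hspa5 was at 1709, 1724 and 1605 CPM in the 3 KO libraries of day 3, against 7245, 5362 and 6148 CPM in the 3 control libraries. By day 5 Hspa5 was at 1136, 1236, 1163 and 1118 CPM in the 4 KO libraries, against 1259.9, 1281, 1412 and 1517 CPM in the 4 control libraries. The KO libraries lay below the control libraries on both days, by a wide margin at day 3 and a narrow one at day 5. The log2 fold change was -1.90 ± 0.12 (SE) at day 3 (adjusted p = 8.26e-08, edgeR), so KO cells held 26.9% of the control level. At day 5 it was -0.23 ± 0.10, which missed the threshold (adjusted p = 0.0666) and crossed it in 6 of 24 alternatives (adjusted p between 0.0257 and 0.159).

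Hsp90b1 (chromosome 10, 86690841 to 86705444), the ER member of the HSP90 family, was at 1706, 1628 and 1499 CPM in KO, against 5393, 6032 and 6133 CPM in control, at day 3. By day 5 Hsp90b1 was at 1253, 1311, 1281 and 1164 CPM in KO, against 1854, 1851, 1941 and 2118 CPM in control. Every KO library was below every control library on both days, and the log2 fold changes were -1.86 ± 0.10 and -0.63 ± 0.09 (adjusted p = 3.09e-08 and 4.07e-05). Of its annotated exon bases 10.3% overlap a pseudogene on the opposite strand, and the strand setting of the counting is not given in the sources used here. Together, Hspa5 and Hsp90b1 made up 0.295% to 0.331% of the counts of KO day 3 libraries, against 1.14% to 1.21% of those of control day 3 libraries.

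The cofactors of BiP differed among themselves. Hyou1, a nucleotide exchange factor of BiP, was at 275, 242 and 245 CPM in KO and 699.6, 694 and 727 CPM in control at day 3. By day 5 Hyou1 was at 244, 250.3, 255 and 239 CPM in KO and 234, 222, 222 and 291 CPM in control. It fell at day 3 (-1.47 ± 0.10, adjusted p = 1.27e-07), whereas the groups overlapped at day 5 (0.03 ± 0.09, adjusted p = 0.812). Sil1, the other exchange factor, was at 31.8, 37.6 and 45.7 CPM in KO and 36.1, 42.7 and 36.5 CPM in control at day 3, and the groups overlapped (-0.01 ± 0.12, adjusted p = 0.957). At day 5 Sil1 was at 31.04, 31.9, 37.3 and 34.2 CPM in KO and 21.9, 23.2, 22.3 and 24.8 CPM in control, with every KO library above every control library (0.54 ± 0.11, adjusted p = 0.000724). Of the J-domain partners, Dnajb11 and Dnajc3 fell at day 3 (-0.92 ± 0.10 and -0.75 ± 0.09, adjusted p = 4.58e-06 and 1.74e-05). Dnajb11 was at 125, 95.3 and 114 CPM in KO and 199.999, 216 and 221 CPM in control at day 3. Its day 5 libraries, at 124, 126, 125 and 122 CPM in KO and 125, 124, 115 and 144 CPM in control, overlapped (-0.03 ± 0.08, adjusted p = 0.756). Dnajc3 was at 199, 217 and 197 CPM in KO and 358, 318 and 357 CPM in control at day 3. It overlapped at day 5 too, at 237, 235, 224 and 227 CPM in KO and 197, 203, 202 and 251 CPM in control (0.11 ± 0.08, adjusted p = 0.248).

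Dnajb9, a J-domain protein that is itself a target of XBP1 and restrains IRE1, changed side between the days. Dnajb9 was at 41.9, 52.1 and 55.2 CPM in KO, against 102, 93.5 and 90.9 CPM in control, at day 3. By day 5 Dnajb9 was at 46.5, 44.3, 49.3 and 49.01 CPM in KO, against 29.8, 28.4, 27.2 and 49.9 CPM in control. KO was below control in every library at day 3 (-0.96 ± 0.19, adjusted p = 0.000976), and at day 5 KO was above 3 of the 4 control libraries, the exception being replicate 4 at 49.9 CPM (0.48 ± 0.16, adjusted p = 0.0233). The day 5 call was lost in 6 of 24 alternatives, with adjusted p between 7.87e-06 and 0.0751. Sdf2l1, which binds BiP together with J-domain proteins, was at 21.1, 22.5 and 27.8 CPM in KO and 76.9, 73.3 and 78.2 CPM in control at day 3. At day 5 its values were 20.4, 20.5, 22.3 and 22.03 CPM in KO and 23.1, 21.99, 22.6 and 25.004 CPM in control. The gene fell at day 3 (-1.68 ± 0.10, adjusted p = 5.67e-08) and its groups overlapped at day 5 (-0.12 ± 0.08, adjusted p = 0.233). Hspa13, an atypical HSP70, was called on neither day (-0.10 ± 0.10 at day 3 and 0.13 ± 0.08 at day 5), with levels of 87.3 to 119 CPM over all 14 libraries.

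Creld2 and Manf, small proteins of the ER that are induced by ER stress and also secreted, were among the most lowered. Creld2 was at 31.6, 23.5 and 32.3 CPM in KO, against 125, 118 and 133 CPM in control, at day 3. By day 5 Creld2 was at 29.9, 27.8, 34.002 and 29.8 CPM in KO, against 38.3, 43.1, 35.02 and 51.2 CPM in control. KO libraries lay below control libraries on both days, at 23.9% of the control level at day 3 (-2.06 ± 0.14, adjusted p = 1.21e-07) and 72.2% at day 5 (-0.47 ± 0.11, adjusted p = 0.00315). Manf averaged 108 ± 12.5 CPM in KO and 326 ± 9.22 CPM in control at day 3 (± SD over 3 libraries each), a log2 fold change of -1.59 ± 0.10 (SE). Its day 5 means were 105 ± 5.34 CPM in KO and 135 ± 14.5 CPM in the 4 control libraries (± SD), a log2 fold change of -0.36 ± 0.08. Both of its changes passed the test (adjusted p = 6.57e-08 and 0.00218).

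The lectin chaperones calreticulin (Calr) and calnexin (Canx), which hold newly made glycoproteins until they fold, were lower in KO on both days. Calr was at 1121, 1006 and 1096 CPM in KO and 2621, 3248 and 3002 CPM in control at day 3. By day 5 Calr was at 908, 963, 989.6 and 922 CPM in KO and 1382, 1382, 1367 and 1676 CPM in control. No KO library reached a control library (-1.46 ± 0.11 at day 3 and -0.62 ± 0.09 at day 5, adjusted p = 2.7e-07 and 9.25e-05). Canx, the membrane-bound form, was at 1097, 1054 and 962 CPM in KO and 1757, 1916 and 1924 CPM in control at day 3. Its day 5 values were 1031, 967, 823 and 809 CPM in KO and 1178, 1161, 1165 and 1166 CPM in control. The changes of Canx were smaller and also without overlap (-0.85 ± 0.10 and -0.36 ± 0.09, adjusted p = 1.68e-05 and 0.00359).

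Of the 6 genes for disulfide formation, 5 fell in KO at day 3, and 4 fell and 1 rose at day 5. Over all tested genes, 26.2% were lower and 24.6% higher at day 3, and 26.2% and 26.3% at day 5. Pdia3, the disulfide isomerase that works with the lectin chaperones, was at 1294, 1212 and 1170.5 CPM in KO and 2181, 2756 and 2538 CPM in control at day 3. By day 5 Pdia3 was at 1109.7, 1118, 1077 and 1033 CPM in KO and 1376, 1388, 1473 and 1683 CPM in control. KO libraries were the lower ones on both days (-1.02 ± 0.11 and -0.45 ± 0.09, adjusted p = 4.96e-06 and 0.0011). P4hb, the classical disulfide isomerase and a subunit of collagen prolyl hydroxylase, was at 1379, 1442 and 1333 CPM in KO and 2211, 2081 and 2167 CPM in control at day 3. At day 5 P4hb was at 1082, 1153, 991 and 956 CPM in KO and 1488, 1541, 1608 and 1716 CPM in control. Its changes on the 2 days were alike in size (-0.64 ± 0.10 and -0.60 ± 0.08, adjusted p = 9.21e-05 and 3.86e-05), and the difference between them was 0.03 ± 0.13 (SE, adjusted p = 0.902). The isomerases Pdia4 and Pdia6 fell by 1.73 and 1.31 on the log2 scale at day 3 (adjusted p = 1.27e-07 and 5.75e-07), and by 0.43 and 0.55 at day 5 (adjusted p = 0.0026 and 0.000205). Pdia4 ranged over 310.1 to 332 CPM in KO and 906 to 1180 CPM in control at day 3, and Pdia6 over 456 to 499.8 CPM in KO and 1009 to 1302 CPM in control.

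Ero1lb, the oxidase that recharges disulfide isomerases, moved in opposite directions on the 2 days. Ero1lb was at 10.8, 8.92 and 11.97 CPM in KO, against 19.2, 20.5 and 23.7 CPM in control, at day 3. By day 5 Ero1lb was at 11.6, 14.6, 11.8 and 10.95 CPM in KO, against 5.08, 4.98, 5.21 and 6.54 CPM in control. Every KO library was below every control library at day 3 (-0.96 ± 0.15, adjusted p = 0.000147) and above at day 5 (1.16 ± 0.13, adjusted p = 8.46e-06). KO cells held similar levels on both days, and the level of control cells at day 5 was 25.9% of that at day 3. Txndc5, another isomerase, was called on neither day (0.07 ± 0.08 and -0.09 ± 0.07), with levels between 471 and 623 CPM over all libraries. Of its exon bases, 6.9% overlap an antisense gene.

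**Figure D3:**
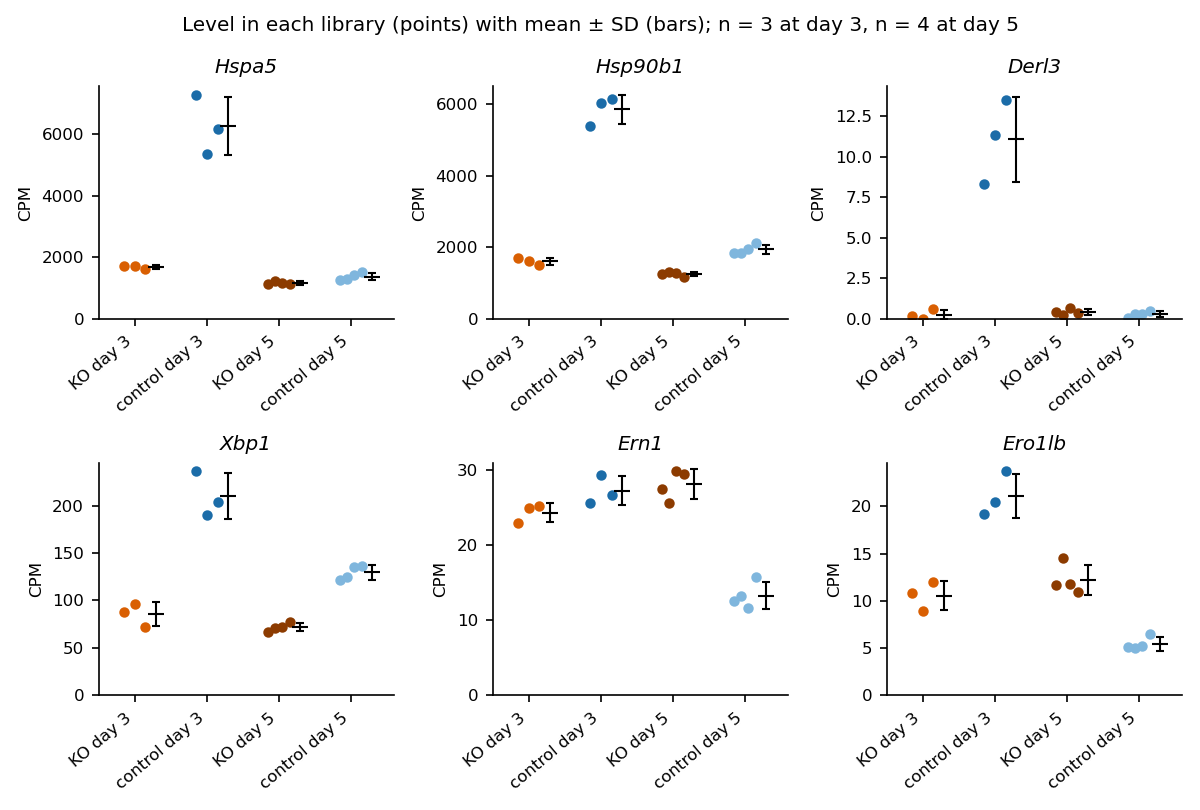
CPM of 6 members in each library (points, linear axes starting at 0) with the mean and SD of the group (black), for KO day 3, control day 3, KO day 5 and control day 5. For Hspa5, Hsp90b1, Derl3 and Xbp1 the 3 day 3 control libraries stand above all others, whereas for Ern1 and Ero1lb the 4 day 5 control libraries are the lowest.

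Among the 10 ERAD genes, 8 were lower and 1 higher in KO at day 3, and 4 were lower and 2 higher at day 5. Beside the 26.2% lower and 24.6% higher of all tested genes at day 3, and 26.2% and 26.3% at day 5, the day 5 counts are close to the background. Derl3, a derlin of the channel that returns misfolded proteins to the cytosol, showed the widest fold of all members. Derl3 was at 0.211, 0 and 0.604 CPM in KO, against 8.33, 11.4 and 13.53 CPM in control, at day 3, which rest on 8, 0 and 6 counts in KO and on 73, 146 and 145 counts in control. The library with a count of 0 is the shallowest, where 3 counts would be 1.41 CPM (counting error only). At day 5 Derl3 was at 0.420, 0.213, 0.660 and 0.376 CPM in KO, against 0.0643, 0.311, 0.326 and 0.509 CPM in control. Only the day 3 control libraries held more than 1 CPM, and the log2 fold change at day 3 was -5.17 ± 0.52 (adjusted p = 2.94e-06). Its day 5 groups overlapped at 1 to 13 counts per library (0.53 ± 0.53, adjusted p = 0.413), so a difference was not detectable at this depth.

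Derl1 and Derl2, the more widely expressed derlins, fell at day 3 (-0.92 ± 0.07 and -0.70 ± 0.08, adjusted p = 3.68e-07 and 6.75e-06). Derl1 was at 133, 108 and 122 CPM in KO and 229, 229 and 231 CPM in control at day 3. Derl2 was at 44.1, 47.9 and 42.4 CPM in KO and 73.6, 69.9 and 73.1 CPM in control. Both were clearly separated at day 3, and neither was called at day 5 (-0.11 ± 0.06 and -0.10 ± 0.06, adjusted p = 0.151 and 0.186). On that day Derl1 was at 119, 118, 114 and 111 CPM in KO and 121, 122, 127 and 128 CPM in control, with KO slightly lower in every library. Derl2 was then at 47.2, 53.1, 47.7 and 54.3 CPM in KO and 52.9, 53.1, 53.9 and 57.3 CPM in control, with overlap. Herpud1, a membrane scaffold of the degradation complex and a target of both ATF6 and ATF4, was at 70.1, 68.5 and 71.01 CPM in KO, against 287, 238 and 229 CPM in control, at day 3. By day 5 Herpud1 was at 36.8, 38.4, 49.1 and 51.1 CPM in KO, against 63.1, 68.6, 71.01 and 75.96 CPM in control. It fell on both days (-1.84 ± 0.13 and -0.67 ± 0.11, adjusted p = 1.37e-07 and 0.000158), with no overlap between the genotypes.

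The ubiquitin ligase of the pathway, Syvn1 (HRD1), and its adaptor Sel1l fell at day 3 (-0.93 ± 0.07 and -1.01 ± 0.13, adjusted p = 3.19e-07 and 2.45e-05). Syvn1 averaged 51.2 ± 0.570 CPM in KO and 97.7 ± 6.26 CPM in control at day 3 (± SD over 3 libraries each), and it fell at day 5 as well (-0.26 ± 0.06, adjusted p = 0.00249). Sel1l was at 285, 339.8 and 317 CPM in KO and 646, 594 and 657 CPM in control at day 3. At day 5 Sel1l was at 252, 246, 246 and 257 CPM in KO and 220.1, 215, 221 and 319 CPM in control, where control replicate 4 alone exceeded the KO libraries. Its day 5 effect was 0.04 ± 0.11 (adjusted p = 0.799), and 0.20 without that library, which passed the test (adjusted p = 0.0253). Edem1, which trims mannose from misfolded glycoproteins, was at 142, 150.2 and 135 CPM in KO and 336, 297 and 311 CPM in control at day 3. Its day 5 values were 134, 133, 119.7 and 118 CPM in KO and 203, 206, 192 and 201 CPM in control. Edem1 fell on both days without overlap (-1.15 ± 0.08 and -0.67 ± 0.07, adjusted p = 1.21e-07 and 2.34e-06).

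Edem2, a related mannosidase, was the 1 member called higher in KO at day 3. Edem2 was at 37.8, 28.2 and 40.1 CPM in KO and 25.9, 30.2 and 29.8 CPM in control, with overlap (0.34 ± 0.13, adjusted p = 0.0409). The call was lost in 11 of 24 alternatives (adjusted p between 0.00989 and 0.158). At day 5 Edem2 was at 37.2, 38.2, 33.4 and 38.7 CPM in KO and 25.3, 24.7, 28.3 and 32.8 CPM in control, with every KO library above every control library (0.41 ± 0.11, adjusted p = 0.00575). Os9, a lectin that delivers glycoproteins to the ligase, was at 141, 143 and 173 CPM in KO and 129, 172 and 140.3 CPM in control at day 3, with overlap (0.05 ± 0.13, adjusted p = 0.77). By day 5 Os9 was at 144, 146, 148 and 143 CPM in KO and 99.8, 99.6, 99.7 and 135 CPM in control, and rose in KO (0.42 ± 0.11, adjusted p = 0.00582). Selk, a selenoprotein that binds derlins, lay between 38.96 and 47.5 CPM in KO and between 51.9 and 72.3 CPM in control over both days, and fell on each (-0.74 ± 0.10 and -0.36 ± 0.08, adjusted p = 3.03e-05 and 0.00184).

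The 4 genes of the sensors did not move as a block. Xbp1 (chromosome 11, 5520641 to 5525993) was at 88.4, 96.7 and 72.1 CPM in KO, against 237, 190.1 and 203 CPM in control, at day 3. By day 5 Xbp1 was at 66.7, 71.4, 71.8 and 76.9 CPM in KO, against 121, 125, 135 and 137 CPM in control. It was lower in every KO library on both days (-1.30 ± 0.11 and -0.85 ± 0.09, adjusted p = 5.76e-07 and 4.27e-06), and at day 5 it had the largest fall of the 36 members. Counts per gene do not tell spliced from unspliced Xbp1 mRNA. Atf6 was at 91.7, 91.1 and 86.9 CPM in KO, against 189.6, 171 and 165 CPM in control, at day 3. At day 5 Atf6 was at 78.6, 79.9, 85.4 and 87.4 CPM in KO, against 75.2, 76.6, 69.7 and 72.6 CPM in control. It fell at day 3 (-0.96 ± 0.07, adjusted p = 2.54e-07) and was slightly higher in each KO library at day 5 (0.17 ± 0.06, adjusted p = 0.0306), a call lost in 6 of 24 alternatives (adjusted p between 0.00513 and 0.0893).

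Ern1, which encodes IRE1, was at 22.9, 24.9 and 25.1 CPM in KO and 25.6, 29.3 and 26.7 CPM in control at day 3, with each KO library just below the controls and no call (-0.17 ± 0.11, adjusted p = 0.208). By day 5 Ern1 was at 27.4, 25.6, 29.8 and 29.5 CPM in KO and 12.5, 13.3, 11.6 and 15.7 CPM in control. The 4 day 5 control libraries were the lowest of all 14, and KO stood 2.10-fold higher at that day (1.07 ± 0.10, adjusted p = 1.01e-06). Eif2ak3, which encodes PERK, was at 41.6, 53.98 and 44.2 CPM in KO and 45.5, 42.03 and 46.5 CPM in control at day 3. By day 5 Eif2ak3 was at 42.4, 44.1, 41.5 and 39.7 CPM in KO and 41.1, 38.3, 49.999 and 56.99 CPM in control. The genotypes overlapped on both days, and neither effect passed the test (0.03 ± 0.13 and -0.15 ± 0.11, adjusted p = 0.869 and 0.279). Of the exon bases of Eif2ak3, 8.0% overlap a gene on the opposite strand.

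The 3 translocon genes differed little from day to day. Sec61a1, the pore subunit, averaged 253 ± 15.9 CPM in KO and 315 ± 14.4 CPM in control at day 3 (± SD over 3 libraries each), and 234 ± 5.38 CPM in KO and 339 ± 18.6 CPM in control at day 5 (± SD over 4 libraries each). It fell on both days (-0.31 ± 0.07 and -0.54 ± 0.06, adjusted p = 0.00268 and 9.89e-06), as did Ssr1, a subunit of the translocon-associated complex, which ranged over 332 to 369.7 CPM in KO and 399 to 449.7 CPM in control (-0.29 ± 0.07 and -0.32 ± 0.06, adjusted p = 0.00394 and 0.000673). Sec61b, a small subunit of the pore, was at 24.4, 23.9 and 26.6 CPM in KO and 28.98, 34.1 and 32.7 CPM in control at day 3, without overlap, and missed the threshold (-0.35 ± 0.14, adjusted p = 0.0557), which it passed in 8 of 24 alternatives (adjusted p between 0.00439 and 0.152). By day 5 Sec61b was at 16.99, 18.9, 24.1 and 25.5 CPM in KO and 28.8, 31.5, 28.7 and 34.96 CPM in control and fell (-0.54 ± 0.12, adjusted p = 0.0018). The difference between the 2 KO effects was called for 0 of the 3 genes (edgeR, adjusted p between 0.137 and 0.89), and for 1 at an unadjusted p and by DESeq2. Of the exon bases of Sec61a1, 8.2% overlap an antisense gene.

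**Figure D4:**
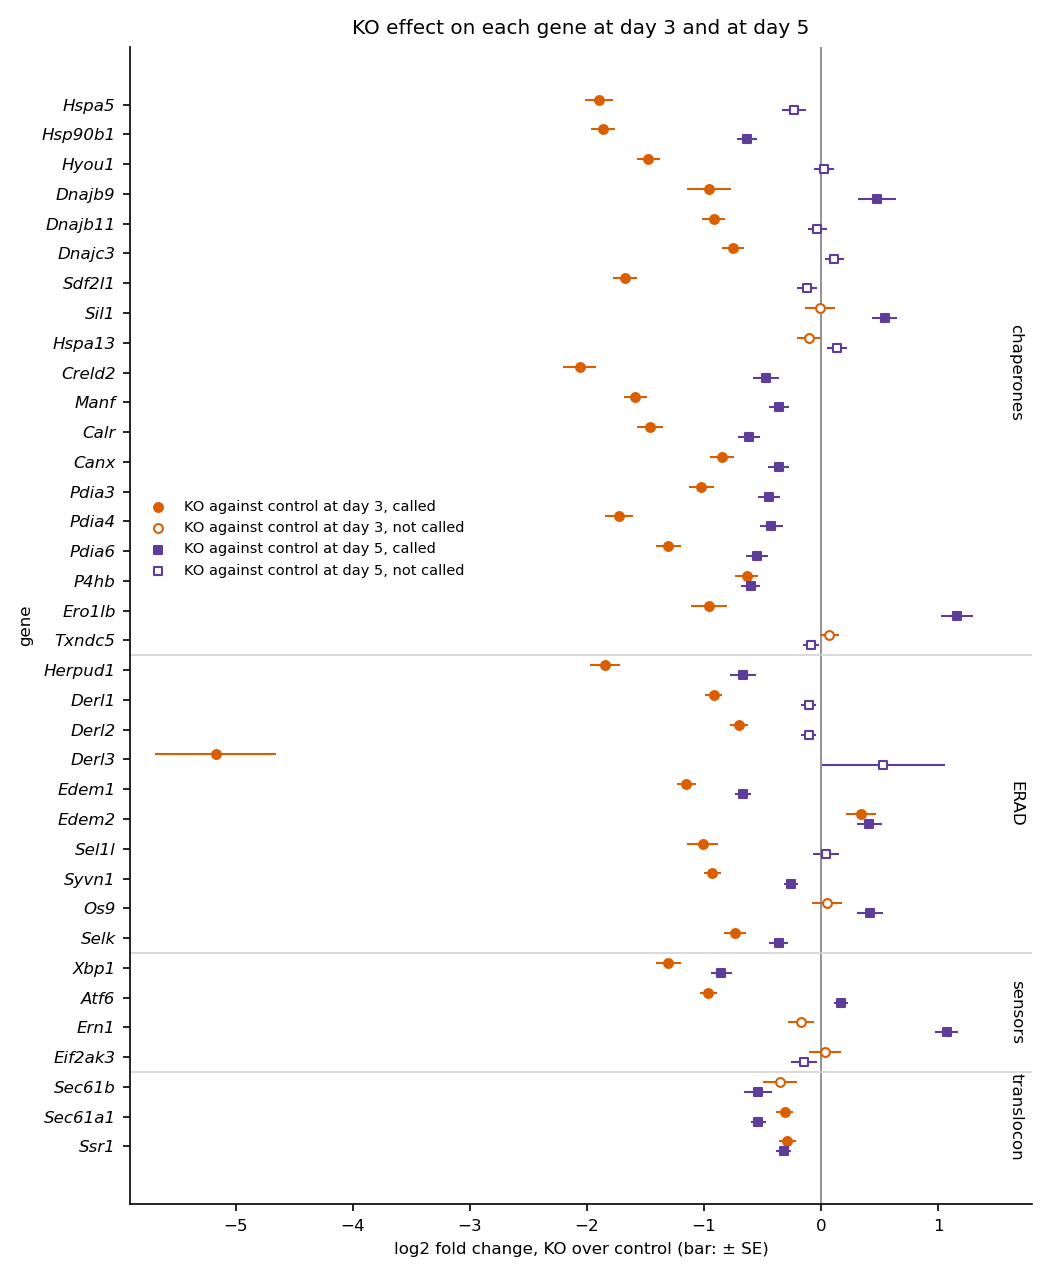
Log2 fold change of KO over control for each member at day 3 (orange circles) and day 5 (purple squares), with bars of 1 SE; filled symbols passed the test and open symbols did not. Day 3 effects lie at or below 0 for nearly all chaperone and ERAD genes, with Derl3 at -5.17. Day 5 effects lie closer to 0 for most chaperone and ERAD genes. They lie farther from 0 for other members, such as Ern1, Ero1lb, Sil1, Os9, Sec61a1 and Sec61b.

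The difference between the KO effects, day 5 minus day 3, reached the threshold in 3 of the 4 classes. It was called for 16 of the 19 chaperones and oxidoreductases (median 0.88 on the log2 scale), for 7 of the 10 ERAD genes (median 0.64) and for 3 of the 4 sensor genes (median 0.79), positive in each case. Over all tested genes it was called positive for 7.16%. It was widest for Derl3 (5.70 ± 0.74, adjusted p = 0.00033), Ero1lb (2.12 ± 0.20, adjusted p = 4.45e-05) and Hspa5 (1.66 ± 0.16, adjusted p = 3.98e-05). Xbp1 (0.45 ± 0.14, adjusted p = 0.0434), Canx (0.48 ± 0.14, adjusted p = 0.0298) and Sil1 (0.55 ± 0.16, adjusted p = 0.0375) passed narrowly, and their calls were lost in 15, 10 and 12 of 24 alternatives. The highest adjusted p among these alternatives was 0.109 for Xbp1, 0.109 for Canx and 0.104 for Sil1.

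Between the days, many more of these genes changed in control cells than in KO cells. Within control cells, 29 members were lower and 1 was higher at day 5 than at day 3, with a median log2 fold change of -0.75, while 19.9% of all tested genes were lower and 18.3% were higher. Within KO cells, 4 members were lower and 0 were higher at day 5, with a median of -0.10, beside 7.06% and 4.98% of all tested genes. At an unadjusted p of 0.05 edgeR gave 3 higher members in KO, and DESeq2 called 5 lower and 0 higher. The comparison of KO with control at day 3 and that of the control days share the 3 day 3 control libraries. Hspa5 changed by -0.53 ± 0.11 (SE) between the days in KO and by -2.19 ± 0.11 in control. For Creld2 the values were 0.02 ± 0.13 in KO and -1.58 ± 0.12 in control, and for Derl3 they were 0.50 ± 0.58 in KO and -5.20 ± 0.44 in control. Ern1 changed by 0.22 ± 0.10 in KO and -1.03 ± 0.10 in control.

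The 4 members that were lower at day 5 than at day 3 in KO cells were Herpud1 (-0.68 ± 0.12, adjusted p = 0.00192), Hspa5 (-0.53 ± 0.11, adjusted p = 0.00594), P4hb (-0.41 ± 0.09, adjusted p = 0.0084) and Hsp90b1 (-0.36 ± 0.09, adjusted p = 0.0209). This count depended on the libraries and the scaling. It was 7 without control day 5 replicate 4 (6 lower, 1 higher), 7 when the fit held the 2 KO groups alone (6 lower, 1 higher), and 8 when libraries were scaled by their totals alone (3 lower, 5 higher), a scaling that moved the median of all genes in this comparison to 0.13 and gave 1675 higher and 626 lower genes among all tested, beside 714 and 1012. With the embryo as a block, Sel1l was added (adjusted p = 0.0323), for a count of 5. In control cells the single rise was Txndc5 (0.21 ± 0.07, adjusted p = 0.039), which was lost in 12 of 25 alternatives (adjusted p between 0.00547 and 0.35).

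Levels can be set against each other between genes only per length, as TPM, a length-scaled share of the library computed from the deposited counts and gene lengths. In KO cells at day 3 the highest mean TPM was that of Hspa5 (1781 ± 111), then Hsp90b1 (1620.05 ± 136), Calr (1532 ± 71.6) and P4hb (1513 ± 95.6), where each mean ± SD overlapped that of its neighbour in the order (n = 3). In control cells at day 3 Hspa5 (6235 ± 964) and Hsp90b1 (5533 ± 389) also led, with overlapping SDs, followed by Calr (3968 ± 410.1). At day 5 Calr led in KO (1423 ± 61.5) and in control (2013 ± 164), and Hspa5 ranked 3 in KO (1301 ± 86.8) and 5 in control (1409 ± 105). The mean ± SD of Hsp90b1 overlapped that of Calr in KO (1328 ± 93.3) and in control (1897 ± 91.3), as did that of Hspa5 in KO. Genes of the sensor class were far less abundant than these leading chaperones. Xbp1 was at 132 ± 22.3 TPM in KO and 304 ± 35.7 TPM in control at day 3, where it ranked 14 and 13 among the members, above several chaperones. Ern1 was at 16.9 ± 0.850 TPM in KO and 17.8 ± 1.17 TPM in control on that day. Derl3, at 0.553 ± 0.617 TPM in KO and 21.6 ± 5.20 TPM in control, was the rarest member in KO cells at day 3.

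Other genes of the pathway were counted in lists set by function. Among all tested genes, 26.2% were lower and 24.6% higher at day 3, and 26.2% and 26.3% at day 5. For KO against control, where a direction is given with 0 genes of a list, edgeR at an unadjusted p of 0.05 and DESeq2 also gave 0. Of 28 other ER folding genes, 12 were lower and 4 higher at day 3 (median -0.16), and 14 were lower and 2 higher at day 5 (median -0.20). Ero1l, the hypoxia-responsive relative of Ero1lb, averaged 723 CPM in KO and 2185 CPM in control at day 3 (-1.60 ± 0.16, adjusted p = 3.34e-06). Of 22 other ERAD genes, 8 were lower and 5 higher at day 3, and 7 were lower and 6 higher at day 5, shares near those of all tested genes. Ngly1, which removes glycans from retrotranslocated proteins, rose on both days (1.14 ± 0.08 at day 3 and 0.61 ± 0.07 at day 5, adjusted p = 2.03e-07 and 6.58e-06). Of 29 genes of translocation and N-glycosylation, 17 were lower and 0 higher at day 3 (median -0.34), and 13 were lower and 2 higher at day 5. Rpn1, a subunit of the glycosyltransferase that acts at the translocon, fell by 0.97 at day 3 and by 0.53 at day 5 on the log2 scale. Of 23 genes of ER export and retrieval, 10 were lower and 1 higher at day 3, and 18 were lower and 2 higher at day 5. Kdelr3, a receptor that returns chaperones to the ER, averaged 48.0 CPM in KO and 86.7 CPM in control at day 3, and 41.3 CPM in KO and 115 CPM in control at day 5 (-1.48 ± 0.09, adjusted p = 4.06e-08).

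The PERK-ATF4 arm, which answers amino acid shortage as well as ER stress, had mostly lower genes in KO on both days. Of its 14 genes, 11 were lower and 0 higher at day 3 (median -1.26), and 11 were lower and 1 higher at day 5 (median -0.58). Ddit3, the transcription factor CHOP, averaged 67.1 CPM in KO and 263 CPM in control at day 3 (-1.98 ± 0.12, adjusted p = 5.67e-08). Ppp1r15a, which restores translation, averaged 38.8 CPM in KO and 156 CPM in control at day 3 (-2.04 ± 0.11, adjusted p = 2.28e-08). Trib3, a pseudokinase induced by ATF4 and CHOP, averaged 10.9 CPM in KO and 46.1 CPM in control at day 5 (-2.07 ± 0.20, adjusted p = 3.49e-06). Atf3 was the gene that rose at day 5 (0.76 ± 0.19, adjusted p = 0.00352), with means of 7.06 CPM in KO and 4.12 CPM in control. Between the days, 12 of these 14 genes were lower at day 5 in KO and 12 were lower at day 5 in control, beside 7.06% and 19.9% of all tested genes.

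Of 15 tested UPR regulators (17 listed), 6 were lower and 2 higher at day 3, and 5 were lower and 1 higher at day 5. Of 16 genes for the folding and modification of collagen, 9 were lower and 3 higher on each day. Folding genes of other compartments were counted in the same way. Of 19 cytosolic heat shock genes, 7 were lower and 1 higher at day 3, and 14 were lower and 0 higher at day 5 (median -0.38). Hsp90ab1, the constitutive cytosolic HSP90, averaged 1995 CPM in KO and 3069.9 CPM in control at day 3 (-0.62 ± 0.09, adjusted p = 9.8e-05). Of 12 mitochondrial chaperones and proteases, 9 were lower and 0 higher on each day, with medians of -0.82 at day 3 and -0.44 at day 5. Hspa9, the mitochondrial HSP70, averaged 602 CPM in KO and 1528 CPM in control at day 3, and 342 CPM in KO and 721 CPM in control at day 5.

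**Figure D5:**
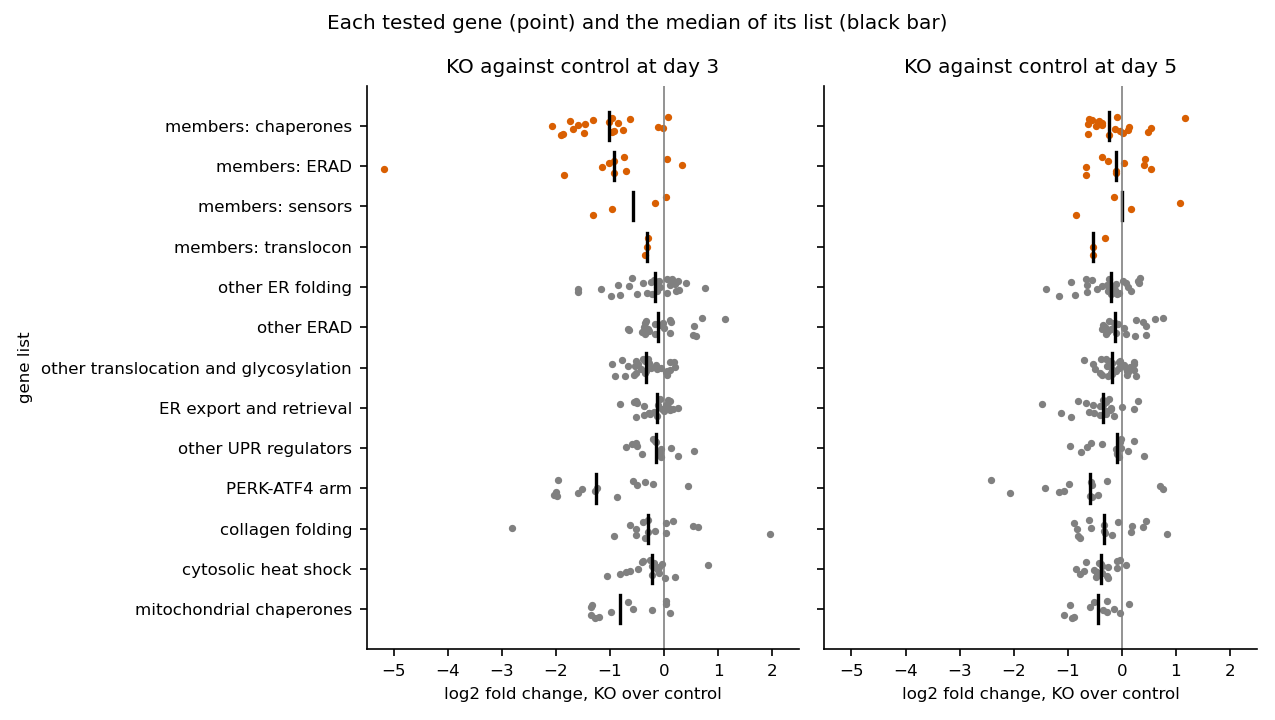
Log2 fold change of KO over control at day 3 (left) and day 5 (right) for every tested gene of each list, the members' classes in orange and the other lists in grey, with the list's median as a black bar. The medians of the members' chaperone and ERAD classes lie at -1.02 and -0.92 at day 3 and at -0.23 and -0.11 at day 5, and that of the PERK-ATF4 arm at -1.26 and -0.58.

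The sexes are unequal, since 5 of 7 KO libraries and 1 of 7 control libraries are male. With sex as a covariate, 30 members were lower and 0 higher at day 3, and 17 were lower and 6 higher at day 5, and Edem2 was no longer called at day 3 (adjusted p = 0.0857, between 0.00989 and 0.158 over its alternatives). KO day 3 replicate 2 is the single female KO library of that day. Its Hspa5 level was 1709 CPM, and the 3 female control libraries were at 5362 to 7245 CPM. That library also differs from those controls in embryo label and litter number, so sex cannot be told apart from these by it. Control day 5 replicate 4 was the highest of its group for 32 of the 36 members (88.9%), and for 37.5% of all tested genes. Without it, 27 members were called at day 5, with Dnajc3, Hspa13 and Sel1l added as higher in KO (adjusted p = 0.0142, 0.00644 and 0.0253). Calls among all genes rose as well, to 8376 (4311 higher) of 14239 tested, beside 7519 (3769 higher) of 14327 in the fit reported here. The share of control day 5 replicate 4 in these day 5 results beyond that was not tested.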

How the data were processed

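Poly(A) RNA of the 14 cultures was sequenced as stranded paired-end libraries, per the labels' protocols. The unit of the deposited values is the count, a whole number of reads or fragments per gene with no normalization, and the authors also gave each gene's length in bases, per the file headers. Reads were assigned with featureCounts on mm10, per the submitters' processing notes; the sources used here do not give the aligner, the annotation release or the strand setting. Lines without a gene identifier (909 of 27179, 0.194% to 0.315% of a library's counts) were left out, as were 112 identifiers of the Y chromosome and of Xist and Tsix.

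edgeR 4.0.16 (limma 3.58.1, R 4.3.3) kept 14327 genes by filterByExpr, scaled totals by TMM and fitted a robust quasi-likelihood model to all 14 libraries with 1 mean per group and 10 residual degrees of freedom. Benjamini-Hochberg adjustment ran over all tested genes, and calls were made at 0.05. The procedure was run on simulated counts of independent libraries, where a small set of genes changed, equally up and down, in KO day 3 alone. In these data far more genes were called and libraries share embryos, so that run does not measure the error here. Alternatives were RLE factors, totals alone, other filters, DESeq2 1.42.0, limma voom, and sex, replicate and embryo blocks. They also held glmTreat at 1.5-fold, the compared groups alone, the same-embryo controls summed, and each library left out. Where a gene's calls are counted out of 24 or 25 alternatives, glmTreat is left out, with its adjusted p, since it asks a stricter question.

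Members were taken by symbol through a RefSeq gene table. The members and the other lists were chosen with earlier results of these data known, and no list was tested as a set. Values per library are given for the 6 members of highest mean CPM, the 4 with the largest called rise or fall per KO comparison, all sensors, and members whose call or direction differed between days; at most 3 genes per direction and comparison are named from other lists. Pathway lists are described by counts and medians. Replicate numbers 2, 3 and 4 of KO mark the same embryos on both days, and the deviations of these pairs correlated at -0.017, -0.023 and 0.204. Between genotypes the numbers name different embryos. No 2 libraries agreed within sampling noise (chi-square per degree of freedom between 3.29 and 79.0). Promoter stretches are those of RefSeq; protein sequences were not used here.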

Additional observations from a re-analysis of the deposited data

Results flagged for a closer look

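In 8 of the 72 groups of 4 libraries (36 members at day 5, KO and control), 1 library stood far from the other 3, where chance marks about 1 in 20 groups. All 8 were control day 5 replicate 4, and all stood high. The groups share the same libraries and are not independent, so the 1 in 20 does not measure this count. The share of such groups over all tested genes was not counted. Among all tested genes, 37.5% were highest of the day 5 controls in this library, beside 88.9% of the members. Its levels were 49.9 CPM for Dnajb9 (27.2 to 29.8 CPM in the other 3 control libraries), 251 CPM for Dnajc3, 1676 CPM for Calr and 461 CPM for Pdia4. It held 6.54 CPM for Ero1lb, 319 CPM for Sel1l, 135 CPM for Os9 and 367 CPM for Sec61a1. The same library had the highest cartilage marker sum of the control libraries (3384 CPM), and the part of these markers, of its sex or of its litter in its ER gene levels was not tested.

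For 26 members the effect of KO over control differed between the days by the interaction term of the fit (day 5 minus day 3, log2 scale). This term also rests on the day 3 control libraries, so it is not independent of the day 3 effect. The differences were 1.66 for Hspa5, 1.23 for Hsp90b1, 1.50 for Hyou1, 1.43 for Dnajb9, 0.88 for Dnajb11, 0.87 for Dnajc3, 1.55 for Sdf2l1 and 0.55 for Sil1. Creld2 had 1.59, Manf 1.23, Calr 0.84, Canx 0.48, Pdia3 0.57, Pdia4 1.30, Pdia6 0.76 and Ero1lb 2.12. Among ERAD genes the values were 1.18 for Herpud1, 0.81 for Derl1, 0.60 for Derl2, 5.70 for Derl3, 0.48 for Edem1, 1.05 for Sel1l and 0.67 for Syvn1. Xbp1 had 0.45, Atf6 1.13 and Ern1 1.24. Of these, 9 genes changed sign between the days in the fitted effect (Hyou1, Dnajb9, Dnajc3, Sil1, Ero1lb, Derl3, Sel1l, Atf6 and Ern1), and for Dnajb9, Ero1lb and Atf6 both effects passed the test. For the others the effect of 1 day was not called, so its sign is not settled. The share of such sign changes over all tested genes was not counted.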

How the results depend on the processing

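Depth limits Derl3 at day 5, and 1 KO day 3 library holds 2187168 counts. Leaving out each library in turn gave 28 to 30 called members at day 3 (29 as reported), 22 to 27 at day 5 (24), 23 to 29 for the difference between days (26), 3 to 7 for KO days (4) and 28 to 30 for control days (30). Against a 1.5-fold change (glmTreat, a stricter question by construction), the counts were 3 at day 5 (Xbp1, Ern1 and Ero1lb), 13 for the difference, 0 for KO days and 17 for control days. For KO days the count was 8 with library totals alone, 7 with the 2 groups alone and 7 without control day 5 replicate 4; the cause was not tested. In all genes, calls numbered 1275 to 2750 for the difference (2051 as reported) and 1024 to 2550 for KO days (1726) when a library was left out. The count moved by over 1.5 times without control day 3 replicate 3 for the difference (1275), and without KO day 3 replicate 4 (1024), KO day 5 replicate 3 (1104) or KO day 5 replicate 4 (1107) for KO days. Under glmTreat they numbered 2279 at day 3 (7288), 1710 at day 5 (7519), 167 for the difference, 138 for KO days and 1141 for control days (5481).

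With the replicate block the counts of members were 29 at day 3, 24 at day 5, 26 for the difference, 4 for KO days and 29 for control days. With the embryo as a block they were 24 for the difference (Canx at adjusted p = 0.109 and Xbp1 at 0.0821 were lost), 5 for KO days and 29 for control days (Txndc5 lost, 0.35). Same-numbered KO and control libraries come from different embryos, and their deviations correlated between -0.166 and 0.428. Of 4570 single-gene values recomputed, glmTreat included, 4385 kept their side of the threshold, 46 crossed into a call and 139 left one. No called value changed sign (64 uncalled ones did). ERSE counts did not depend on the window (10 members with the 250 upstream bases alone); ERSE-II went to 1 member. Embryo as a fixed block was not run for KO against control, since no embryo holds both genotypes.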
